A study of Mus musculus with 2 samples.

Results

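The tissue inhibitors of metalloproteinases, *Timp1*, *Timp2*, *Timp3* and *Timp4*, were followed across the cells of amputated mouse digits. All 4 were found by symbol among the 33696 genes of the count tables, and their unique molecular identifiers (UMIs, which count captured transcripts once each) were summed by library and cell type. The tissue came from ICR mice whose hindlimb middle phalanx (P2), a level that does not regrow by itself, was amputated at postnatal day (PN) 3. A bead soaked in recombinant FGF8 at 500 ng/µl, or a control bead in 0.1% BSA, was implanted at PN7, and the wound tissue distal to the stump was taken at PN8, 24 h after implantation. Each condition was 1 library (10x Genomics 3′ v3.1) made from 20 pooled digits of 5 pooled mice of both sexes. In both, the epidermis was pulled off and the tissue was digested with Liberase at 37°C for 4 h. With 1 library per condition no difference could be tested, and every interval given here is an exact 95% interval that covers counting error only.

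TIMPs are secreted proteins that bind the active site of matrix metalloproteinases (MMPs) one to one and block them, so that the ratio of inhibitor to protease sets how fast extracellular matrix is cleared. *Timp1* is the inducible member, switched on by growth factors, cytokines and AP-1 and Ets transcription factors, and it also signals through CD63 and β1 integrin. *Timp2* is made more steadily, and besides inhibiting MMPs it links pro-MMP-2 to MMP-14 at the cell surface, where pro-MMP-2 is activated. *Timp3* stays bound to the matrix and blocks the sheddase ADAM17 and the aggrecanases as well as MMPs, and *Timp4* is best known from heart and fat.

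The FGF8 library held 7249 barcodes and 124889213 UMIs, and the BSA library 3703 barcodes and 67739460 UMIs. After the study's filter (over 200 and under 7500 genes, mitochondrial share under 15%) 6715 and 3252 cells were kept, with medians of 12251 and 15377 UMIs. Only 6 barcodes occurred in both libraries, 4 of them among kept cells. The sexes were unequally pooled: by *Xist* and 4 Y-linked genes, 24.6% of the called FGF8 cells and 79.3% of the called BSA cells were female, so ratios are also given within the cells called female or male (females and males for short) where it matters. Of 11 cell types named from marker genes, the fibroblast-like cells were the largest, with 3269 cells after FGF8 and 1663 after BSA, and all 8 fibroblast markers were found in at least 15.8% of them.

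The genes lie on 4 chromosomes (GRCm39, GENCODE vM39). *Timp1* (ENSMUSG00000001131) is at chrX:20736316-20740976 on the plus strand, has 6 canonical exons and sits inside intron 5 of the synapsin gene *Syn1*, which runs the other way. *Timp2* (ENSMUSG00000017466) is at chr11:118191887-118246566 on the minus strand, with 5 exons and no synapsin host. *Timp3* (ENSMUSG00000020044) is at chr10:86136236-86185371 on the plus strand, with 5 exons, inside intron 6 of *Syn3* on the opposite strand. *Timp4* (ENSMUSG00000030317) is at chr6:115187773-115229336 on the minus strand, and its canonical transcript overlaps 1 exon of *Syn2*. Whether reads were assigned by strand is not given in the sources used here, but the hosts held few UMIs in fibroblast-like cells (*Syn1* 187 and 45, *Syn3* 387 and 242, FGF8 and BSA).

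The sequences next to the start of *Timp1* and *Timp3* are shown because, of the 3 members with more than a few UMIs, *Timp1* differed most between the beads in fibroblast-like cells and *Timp3* least. Positions count from +1 at the canonical transcript start, with no position 0, on the GRCm39 reference. Capitals mark AGGAAG, the core bound by Ets (PEA3) factors, with its reverse complement, and TGAGTAA, a variant of the AP-1 site.
Timp1 upstream, chrX:20736101-20736315, plus strand, -250 to -36: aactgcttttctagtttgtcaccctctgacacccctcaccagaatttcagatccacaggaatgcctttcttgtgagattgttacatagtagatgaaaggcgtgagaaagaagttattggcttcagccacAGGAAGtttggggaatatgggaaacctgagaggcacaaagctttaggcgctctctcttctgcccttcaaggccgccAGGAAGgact
Timp1 first exon, chrX:20736426-20736455, plus strand, +76 to +105: gtggaTGAGTAAtgcgtccAGGAAGcctgg
Timp3 upstream, chr10:86135986-86136235, plus strand, -250 to -1: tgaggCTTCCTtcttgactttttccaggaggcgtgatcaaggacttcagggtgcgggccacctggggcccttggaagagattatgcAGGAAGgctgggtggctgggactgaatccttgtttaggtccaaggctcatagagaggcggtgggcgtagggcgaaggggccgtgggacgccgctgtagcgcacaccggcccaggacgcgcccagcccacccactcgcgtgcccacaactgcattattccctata

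The motifs were searched on both strands in windows of 400 bases, from 250 before to 150 after the start, of 21757 protein-coding genes. AGGAAG was in the windows of all 4 members and in 42.1% of all windows. TGAGTAA was in the *Timp1* window, at +81 to +87, in no window of the other members, and in 3.21% of all windows. The canonical AP-1 site TGANTCA (8.59% of all windows), the STAT site TTCNNNGAA (10.9%) and TATAAA (15.2%) were in none of the 4 windows, and the Sp1 core GGGCGG (49%) was in each. The *Timp1* pair, TGAGTAA followed after 7 bases by AGGAAG, was written from the *Timp1* sequence itself and occurred in 2 of all windows. A match is a description of letters, not of a bound site.

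In fibroblast-like cells *Timp1* was far higher after FGF8, *Timp2* was lower and *Timp3* was nearly level. *Timp1* held 150095 UMIs after FGF8 and 16859 after BSA, which is 2153 against 476 CPM (UMIs of the gene per 1000000 UMIs of the same cells), a log2 ratio of 2.18 (2.15 to 2.20) or 4.52-fold. At the finer clustering resolutions 0.1 and 0.2 it was 1.26 and 1.27, with the cells highest in *Prg4* in a cluster of their own. *Timp2* stood at 592 CPM after FGF8 and 811 CPM after BSA, a log2 ratio of -0.45 (-0.48 to -0.43). *Timp3* stood at 180 and 168 CPM, a log2 ratio of 0.09 (0.05 to 0.14). The order of the members was therefore different in the libraries: *Timp2* led the family after BSA and *Timp1* after FGF8. *Timp4* was close to absent, with 3 UMIs in 3 FGF8 cells and 8 UMIs in 6 BSA cells, a log2 ratio of -2.39 (-4.94 to -0.33). Against all 20045 genes with at least 10 UMIs in these cells, 1 of the 4 members (*Timp1*) had a log2 ratio above 1, where 6.53% of genes did, and 1 (*Timp4*, on 11 UMIs) was below -1, where 5.12% of genes were. The median of all these genes was -0.07, and *Timp1* ranked 246 from the top. *Timp1* is also on a list of genes that the study drew from these same libraries, so its direction here is not independent of that choice.

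By level, *Timp1* was the 68th highest of all genes in FGF8 fibroblast-like cells and the 257th in BSA cells. *Timp2* was the 217th and the 162nd, and *Timp3* the 857th and the 884th. Tags from 3′ ends count one transcript each whatever its length, so these levels are on a scale of captured transcripts.

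The sex makeup moved with the bead, and *Timp1* is X-linked. Within female-called fibroblast-like cells the *Timp1* log2 ratio of FGF8 over BSA was 2.20, and within male-called cells 2.08. Inside the FGF8 library *Timp1* stood at 2163 CPM (female-called cells) and 2189 CPM (male-called cells), and inside the BSA library at 470 and 518 CPM. The value within male-called cells (2.03 to 2.13) lay below that of the pool, and in both sexes *Timp1* was higher after FGF8. For *Timp2* the log2 ratio was -0.57 for females and -0.32 for males, negative in both. For *Timp3* it was 0.36 for females and -0.11 for males, so its direction was not the same in the sexes.

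**Figure D1:**
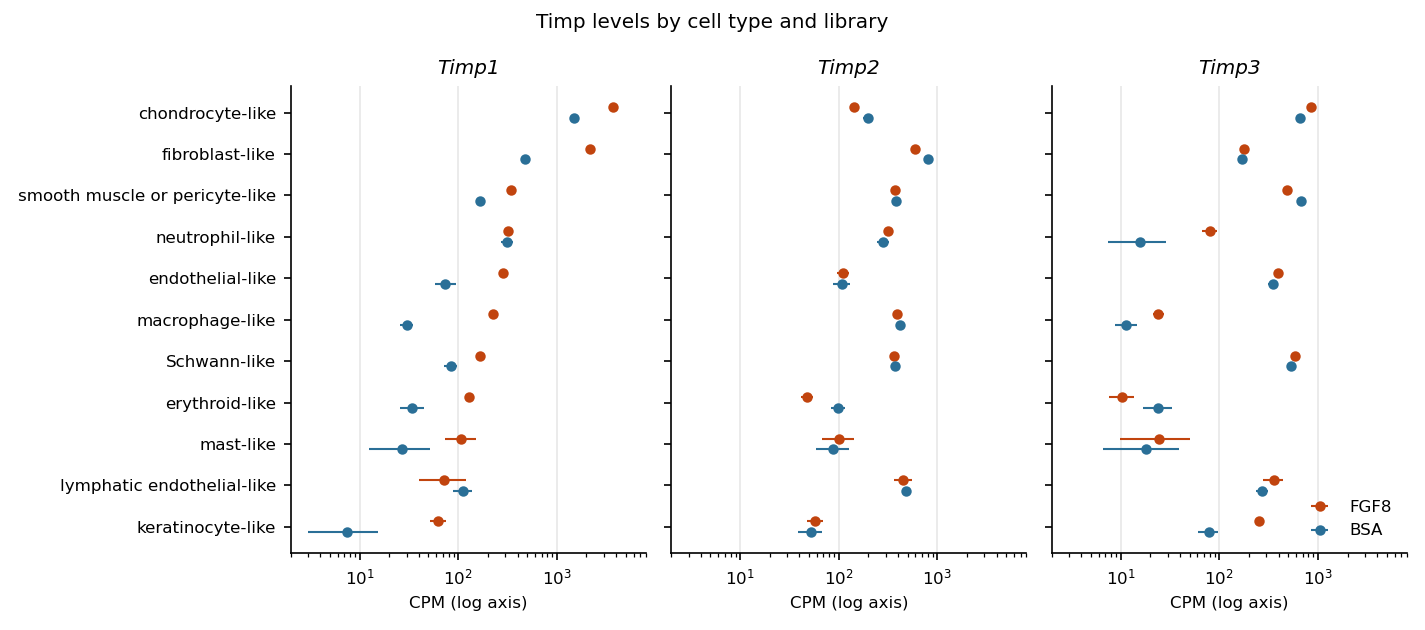
Level of *Timp1*, *Timp2* and *Timp3* in CPM (log axis) in each named cell type, by library, with exact 95% counting intervals as bars. Chondrocyte-like cells had the most *Timp1* in both libraries (3718 CPM after FGF8 and 1482 CPM after BSA), ahead of fibroblast-like cells at 2153 and 476 CPM.

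Per cell, *Timp1* was spread unevenly and *Timp2* evenly. A *Timp1* UMI was found in 86.9% of fibroblast-like cells after FGF8 and 72.2% after BSA, or in 59.9% and 31.5% once each cell was thinned to 2000 UMIs. *Timp2* was in 95.01% and 95.6% of the cells, or 66.3% and 74.1% after thinning. *Timp3* was in 65.1% and 63.8%, or 24.4% and 21.6%. The thinned shares kept the order of the CPM levels for each gene. In erythroid-like cells, which are not known to make TIMPs, the thinned shares were 18.3% and 6.49% for *Timp1*, 6.04% and 10.4% for *Timp2* and 2.29% and 7.79% for *Timp3*, at median depths of 6997 and 18691 UMIs per cell beside 18821 and 20517 in fibroblast-like cells. The tenth of cells with the most UMIs of a gene held 60.8% (FGF8) and 65.8% (BSA) of all *Timp1* UMIs and 51.6% and 55.0% of *Timp3* UMIs, but 27.9% and 31.0% of *Timp2* UMIs.

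Thinned to 5000 UMIs, which 2931 FGF8 and 1496 BSA fibroblast-like cells reached, the median cell had 3 *Timp1* UMIs after FGF8 and 1 after BSA, and the 90th percentile was 22 against 4. Cells with 10 or more *Timp1* UMIs made up 23.3% after FGF8 and 3.34% after BSA, and cells with none were 21.3% and 45.5%. The 25th and 75th percentiles were also higher after FGF8 (1 and 9 against 0 and 2), while the 10th percentile was 0 in both libraries. *Timp2* had a median of 3 in both libraries, with 90th percentiles of 6 and 8, and *Timp3* a median of 0 in both. *Timp1* and *Timp2* were found together in 70.5% of FGF8 and 52.0% of BSA cells at this depth, all of *Timp1* to *Timp3* in 30.1% and 22.1%, and no member in 0.751% and 2.54%.

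**Figure D2:**
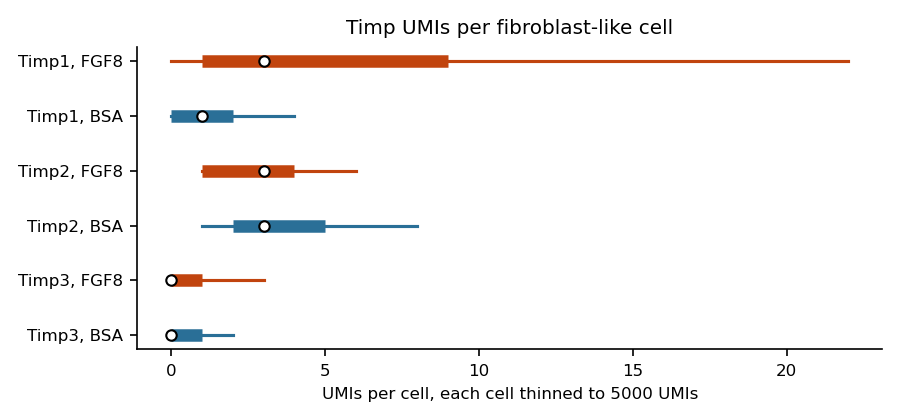
UMIs of each member per fibroblast-like cell after thinning every cell to 5000 UMIs, by library (2931 FGF8 and 1496 BSA cells), with a circle at the median, a thick bar from the 25th to the 75th percentile and a thin line from the 10th to the 90th. The *Timp1* distribution reached a 90th percentile of 22 after FGF8 and 4 after BSA, while that of *Timp2* was 6 and 8.

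The fibroblast-like cells were split into 7 subclusters without using the Timp genes, genes on X or Y, or the study's own gene lists, and each is called here by its leading genes. Scored alone against all other kept cells, only the *Chodl*, *Sema3a* and *Tmem132c* and the *Lpl*, *Agtr2* and *Dlk1* subclusters were named fibroblast-like. The others stayed unnamed. *Timp1* was higher after FGF8 in all 7, with log2 ratios from 0.65 to 2.70 and intervals above 0. In 6 of the 7 the ratio was above 1, a size that 4.53% to 10.3% of the tested genes reached in the same subclusters (named beside each). In the 6 subclusters with values in both sexes, *Timp1* was higher in each sex. The levels themselves differed widely between subclusters.

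*Timp1* was highest in the *Prg4*, *Mmp3* and *Il1rl1* subcluster, led by the joint lubricant lubricin, stromelysin-1 and the interleukin-33 receptor. These 983 FGF8 and 253 BSA cells held 3665 and 1128 CPM of *Timp1*, a log2 ratio of 1.70 (1.67 to 1.73) where 5.43% of genes were above 1. They made up 30.1% of the fibroblast-like cells after FGF8 and 15.2% after BSA, and they held 83.7% and 53.9% of the fibroblast-like *Timp1* UMIs. With both libraries set to the pooled subcluster shares, *Timp1* stood at 1884 and 625 CPM, a log2 ratio of 1.59. What made the shares differ was not tested, so cell makeup and response to the bead cannot be told apart here. Without this subcluster the *Timp1* log2 ratio was 1.28. The same cells had the lowest *Timp2* ratio of the 7, with 441 CPM after FGF8 and 707 CPM after BSA, a log2 ratio of -0.68 (-0.73 to -0.64).

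Next came the subcluster led by *Fmod*, *Kcnma1* and *Ptgis*, where fibromodulin, a collagen-binding proteoglycan of tendon, was the top gene. By markers this subcluster scored higher for osteoblasts (mean log2 fold 3.41) than for tenocytes (2.46). *Timp1* stood there at 1150 CPM after FGF8 and 522 CPM after BSA, a log2 ratio of 1.14 (5.31% of genes above 1), with 1.83 for females and 0.57 for males. In the *Lpl*, *Agtr2* and *Dlk1* subcluster it was 816 and 307 CPM, a log2 ratio of 1.41 (6.62% of genes above 1), again with the larger value in female-called cells (1.85 against 0.67). Male-called BSA cells were few in both (37 and 43).

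*Timp1* was low in the largest subcluster after BSA, that of *Chodl*, *Sema3a* and *Tmem132c*, at 361 CPM after FGF8 and 144 CPM after BSA (log2 ratio 1.33, with 5.81% of genes above 1), and in the *Coch*, *Nrg1* and *Robo2* subcluster, at 225 and 143 CPM (0.65, with 4.53% of genes above 1). It was lowest in the small *Kcnj3*, *Corin* and *Prlr* subcluster, at 29 and 5 UMIs or 61.2 and 15.7 CPM (1.96, with 9.11% of genes above 1). The largest ratio, 2.70 (2.35 to 3.06), was in the *Lars2*, *Camk1d* and *Gphn* subcluster, at 628 and 96.8 CPM, where 10.3% of genes were above 1. Its cells were shallow, with a median of about 2815 UMIs over both libraries, and the pooled ratio was the same without them (2.18).

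*Timp2* was lower after FGF8 in 5 of the 7 subclusters, with intervals below 0. In the *Coch*, *Nrg1* and *Robo2* cells it was higher, at 548 CPM after FGF8 and 467 CPM after BSA (log2 ratio 0.23), but -0.19 for females and 0.49 for males. In the *Kcnj3*, *Corin* and *Prlr* cells the interval held 0. *Timp3* was higher in 5 of the 7 with intervals above 0, most in the *Kcnj3*, *Corin* and *Prlr* cells (249 against 142 CPM, log2 ratio 0.81) and the *Chodl*, *Sema3a* and *Tmem132c* cells (175 against 133 CPM, 0.40). It was lower in the *Lpl*, *Agtr2* and *Dlk1* cells (186 against 209 CPM, -0.17), but 0.04 for females and -0.24 for males. No subcluster had a *Timp2* or *Timp3* ratio beyond 1 in either direction.

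**Figure D3:**
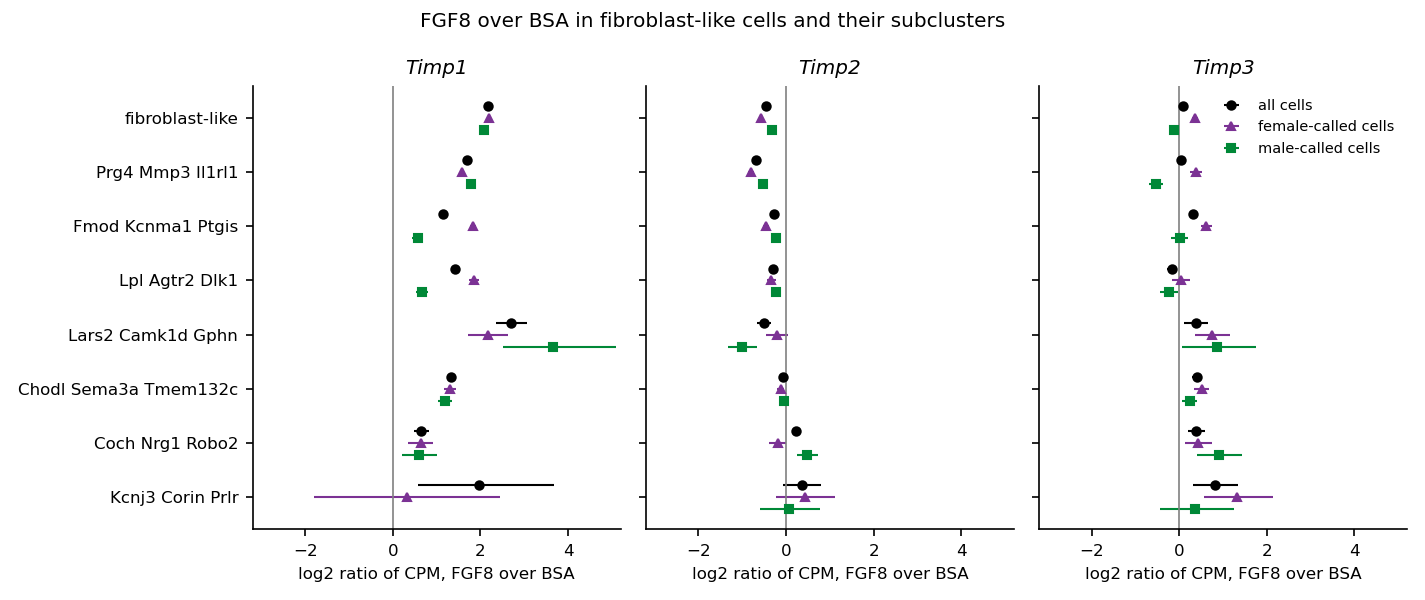
Log2 ratio of CPM, FGF8 over BSA, of *Timp1*, *Timp2* and *Timp3* in fibroblast-like cells and their 7 subclusters, for all cells, female-called cells and male-called cells, with exact 95% counting intervals as bars and a line at 0. *Timp1* lay right of 0 in every subcluster, from 0.65 to 2.70 for all cells, while *Timp2* lay left of 0 in 5 and *Timp3* right of 0 in 6.

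Outside the fibroblast-like cells, *Timp1* was highest in chondrocyte-like cells. These 135 FGF8 and 53 BSA cells, in which all 7 chondrocyte markers were found, held 3718 and 1482 CPM, a log2 ratio of 1.33 (1.26 to 1.39). The ratio was 1.69 for females and 1.10 for males. *Timp1* led the family in these cells in both libraries. Chondrocyte-like cells came first and fibroblast-like cells next among the 11 types in both libraries, with intervals apart from each other and from the rest. Further down the order, neighbours such as smooth muscle or pericyte-like, neutrophil-like and endothelial-like cells after FGF8, or Schwann-like and endothelial-like cells after BSA, had overlapping intervals.

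Over the named types, *Timp1* was higher after FGF8 in 10 of 11, with intervals above 0 in 9 and a log2 ratio above 1 in 8. The share of all tested genes with a ratio above 1 was 5.14% in Schwann-like, 5.4% in smooth muscle or pericyte-like, 5.8% in endothelial-like, 5.88% in erythroid-like, 8.41% in mast-like, 8.47% in macrophage-like, 10.7% in chondrocyte-like, 13.5% in lymphatic endothelial-like, 15% in keratinocyte-like and 17.3% in neutrophil-like cells. In endothelial-like cells *Timp1* stood at 282 CPM after FGF8 and 74.3 CPM after BSA, a log2 ratio of 1.93 (1.56 to 2.31), and 2.45 and 2.05 within the sexes. In smooth muscle or pericyte-like cells it was 340 and 168 CPM (1.01, 0.86 to 1.17). In Schwann-like cells, glia of the digit nerves, it was 167 and 84.2 CPM (0.99, 0.74 to 1.24). Of the 179 BSA UMIs there 60 came from 1 cell, and without the highest cell of each library the ratio was 1.33 (1.04 to 1.63). In erythroid-like cells 24 of the 50 BSA UMIs came from 1 cell, and the ratio of 1.91 became 2.60 (2.04 to 3.23) in the same way. In the 9 FGF8 and 48 BSA lymphatic endothelial-like cells *Timp1* was at 72.2 and 111 CPM (-0.62, -1.52 to 0.18), the only type with a lower value after FGF8.

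Macrophage-like cells had 228 CPM of *Timp1* after FGF8 and 30.2 CPM after BSA, a log2 ratio of 2.91 (2.69 to 3.14). Of the 2349 FGF8 UMIs, 486 came from 1 cell. Without the highest cell of each library the log2 ratio was 2.72 (2.48 to 2.96). The summed level of the 8 fibroblast markers in macrophage-like cells was 1712 CPM after FGF8 and 1436 CPM after BSA. In the fibroblast-like cells themselves these markers were lower after FGF8, at 17415 against 32096 CPM. The macrophage-like level was thus 9.83% of the fibroblast-like level after FGF8 and 4.48% after BSA, with most of the difference in the fibroblast-like cells, and the same shares of the fibroblast-like *Timp1* level are 212 and 21.3 CPM. The measured *Timp1*, with the FGF8 cell of 486 UMIs included, was 1.07 and 1.42 times these levels. In erythroid-like cells (129 and 34.4 CPM), keratinocyte-like cells (62.4 and 7.39 CPM, on 121 and 7 UMIs) and mast-like cells (107 and 27.2 CPM, on 31 and 9 UMIs) *Timp1* was below the level set by the marker share in both libraries. It was 0.706 and 0.661 times that level in erythroid-like, 0.340 and 0.516 times in keratinocyte-like and 0.865 and 0.879 times in mast-like cells. In smooth muscle or pericyte-like and Schwann-like cells it was below that level after FGF8 (0.515 and 0.323 times) and above it after BSA (2.25 and 1.22 times). Chondrocyte-like and endothelial-like cells stood above it in both libraries, with 365 and 79.2 CPM as the level in chondrocyte-like cells and 97.1 and 11.1 CPM in endothelial-like cells. The part of fibroblast RNA in these *Timp1* differences was not tested.

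In neutrophil-like cells 1 cell decided the result. *Timp1* stood at 318 CPM after FGF8 and 312 CPM after BSA (log2 ratio 0.03, -0.21 to 0.27), but 189 of the 199 BSA UMIs came from 1 cell and only 8 of 158 BSA cells had any. Without the highest cell of each library the log2 ratio was 3.91 (3.01 to 4.98). After thinning to 2000 UMIs, 35.9% of the neutrophil-like cells after FGF8 and 3.38% after BSA had a *Timp1* UMI. The fibroblast markers summed to 4448 CPM in the FGF8 neutrophil-like cells and 2965 CPM in the BSA cells. This is 25.5% and 9.24% of their fibroblast-like levels, and the same shares of the fibroblast-like *Timp1* level are 550 and 44.0 CPM. The measured *Timp1* was 0.578 and 7.10 times these levels, with the BSA cell of 189 UMIs included. Without that cell 10 BSA UMIs were left. The part of fibroblast RNA in these *Timp1* levels and shares of cells was not tested.

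*Timp2* ran from 592 CPM in fibroblast-like to 47.8 CPM in erythroid-like cells after FGF8, and from 811 CPM in fibroblast-like to 51.8 CPM in keratinocyte-like cells after BSA. After fibroblast-like cells it was highest in lymphatic endothelial-like (448 and 484 CPM, FGF8 and BSA), macrophage-like (392 and 415 CPM), smooth muscle or pericyte-like (376 and 377 CPM) and Schwann-like cells (367 and 375 CPM), and the intervals of the last 3 overlapped one with the next. In macrophage-like cells this was 6.74 and 11.4 times the level that their fibroblast marker share gives. The log2 ratio was -0.08 (-0.15 to -0.01) in macrophage-like, -0.01 in smooth muscle or pericyte-like and -0.03 in Schwann-like cells. In chondrocyte-like cells *Timp2* was low and lower after FGF8, at 142 and 199 CPM (-0.48, -0.69 to -0.27). Over the 11 named types its interval was below 0 in 4, above 0 in none and held 0 in 7. The lowest ratio, -1.05, was in erythroid-like cells, at 47.8 and 99.1 CPM, which was 0.952 and 1.12 times the level of their fibroblast marker share. In those cells 22.3% of the tested genes had a ratio below -1.

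*Timp3* marked a different set of cells. It was highest in chondrocyte-like (846 and 654 CPM, FGF8 and BSA), smooth muscle or pericyte-like (481 and 667 CPM), Schwann-like (587 and 536 CPM) and endothelial-like cells (396 and 347 CPM), and all 4 stood above fibroblast-like cells in both libraries. It was the leading member in smooth muscle or pericyte-like, Schwann-like, endothelial-like and keratinocyte-like cells. In macrophage-like cells it was 24.02 and 11.4 CPM. The difference between the beads did not have one direction across these cells. In chondrocyte-like cells the log2 ratio was 0.37 (0.27 to 0.48), and in smooth muscle or pericyte-like cells -0.47 (-0.57 to -0.38).

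The lower *Timp3* level after FGF8 in these mural cells was found in both sexes, with log2 ratios of -0.47 and -0.60, and in both parts of the cluster. In the part led by *Myh11* and *Rgs5* (247 FGF8 and 161 BSA cells) *Timp3* stood at 501 and 659 CPM, a log2 ratio of -0.40, and in the part led by *Abcc9* and *Higd1b* (38 and 24 cells) at 399 and 695 CPM, a log2 ratio of -0.80. The fibroblast markers in these cells were at 5330 CPM after FGF8 and 5038 CPM after BSA, which is 30.6% and 15.7% of their fibroblast-like levels because those levels were lower after FGF8, and *Timp3* was 8.74 and 25.2 times the level that this share gives. In keratinocyte-like cells *Timp3* was higher after FGF8, at 255 and 78.2 CPM, a log2 ratio of 1.70 (1.35 to 2.08), a ratio above 1 that 15% of the tested genes of these cells had. The ratio was 0.54 for females and 2.19 for males, with 11 and 12 BSA cells. The *Timp3* level was 16.7 and 15.4 times that of the marker share. Median depth was 9082 UMIs per cell after FGF8 and 1661 after BSA. Thinned to 2000 UMIs, 17.8% (10.9 to 26.7) and 13.8% (6.15 to 25.4) of these cells had a *Timp3* UMI, with overlapping intervals. The cells were few (126 and 125), and the epidermis had been taken off before dissociation.

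*Timp4* was found as 11 UMIs among the 6715 FGF8 cells and 17 among the 3252 BSA cells. Endothelial-like cells held 3 of these UMIs after FGF8 and 5 after BSA, and fibroblast-like cells 3 and 8. In 6 named types it had no UMI in either library, and no order between types can be read from these counts.

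In fibroblast-like cells the 4 members together came to 2925 CPM after FGF8 and 1456 CPM after BSA, a log2 ratio of 1.01 (0.99 to 1.02). *Timp2* held 55.7% of the family's UMIs after BSA, *Timp1* 32.7% and *Timp3* 11.6%. After FGF8 *Timp1* held 73.6%, *Timp2* 20.2% and *Timp3* 6.14%. The family sum was thus higher although *Timp2* was lower. In macrophage-like cells *Timp2* held 90.9% of the family's UMIs after BSA and 60.9% after FGF8. In chondrocyte-like cells the family sum had the same ratio as in fibroblast-like cells (1.01, 0.96 to 1.06), and in smooth muscle or pericyte-like cells it was level (-0.02, -0.08 to 0.05), with more *Timp1* and less *Timp3*.

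**Figure D4:**
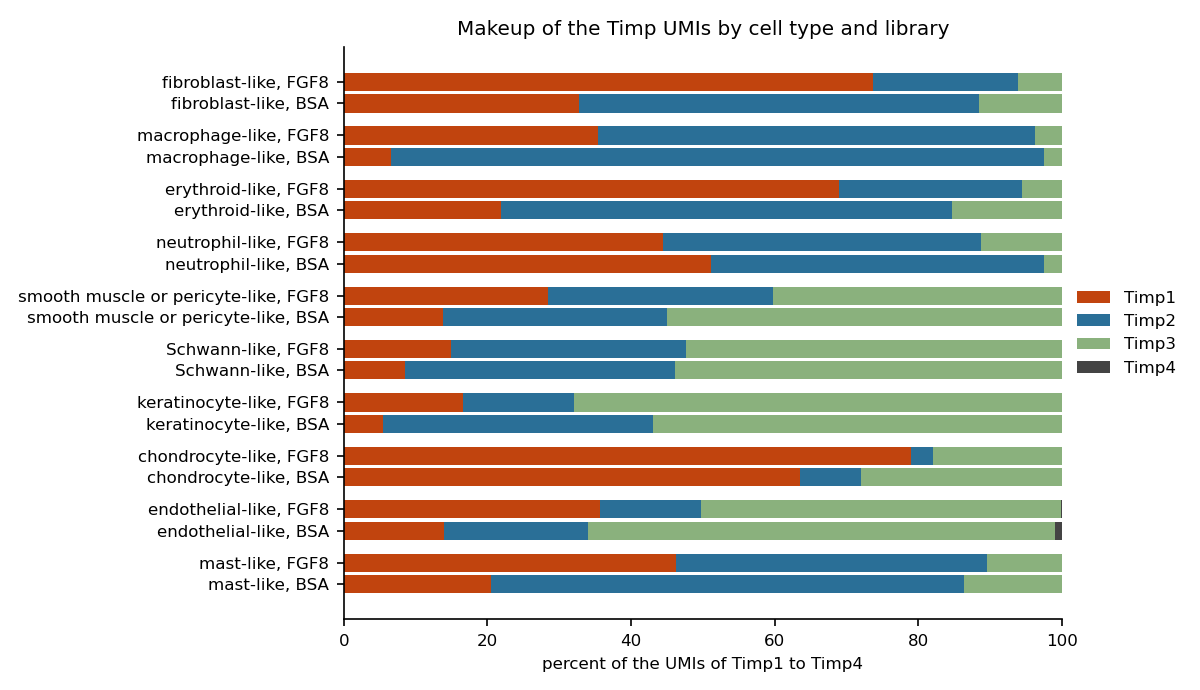
Share of *Timp1* to *Timp4* in the family's UMIs, in percent, by cell type and library (stacked bars that start at 0). In fibroblast-like cells *Timp1* took 73.6% of the family after FGF8 and 32.7% after BSA, and *Timp3* 40.2% and 55.0% in smooth muscle or pericyte-like cells.

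The members were set against the proteases they inhibit. Fibroblast-like cells had 2.37 Timp UMIs per UMI of a secreted MMP after FGF8 and 1.74 after BSA, with 1232 and 837 CPM of secreted MMPs in sum. In the *Prg4*, *Mmp3* and *Il1rl1* subcluster the ratio was 2.74 and 2.64, near level, since *Timp1* and the MMPs were both higher. In chondrocyte-like cells it was lower after FGF8, at 2.52 against 3.16. These are ratios of transcripts and not of active proteins.

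Of 17 secreted MMPs, 12 reached 10 UMIs over the fibroblast-like cells of both libraries. Of these, 6 were above 0, where 43.9% of all tested genes were, and 6 below, with a median of 0.11. A log2 ratio above 1 was found in 4 of the 12, where 6.53% of all tested genes had one, and a ratio below -1 in 1, where 5.12% did. *Mmp3* (stromelysin-1) stood at 646 CPM after FGF8 and 32.0 CPM after BSA, a log2 ratio of 4.34. *Mmp10* (stromelysin-2) had 345 UMIs after FGF8 and none after BSA, at least 58.4-fold higher when BSA is set to the floor of 3 counts. *Mmp9* (gelatinase B), which TIMP1 also binds as a proenzyme, stood at 5.91 and 0.791 CPM (2.90). *Mmp13* (collagenase-3) was 135 and 104 CPM (0.37). *Mmp2* (gelatinase A), whose activation involves *Timp2*, was 283 and 470 CPM, a log2 ratio of -0.73.

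All 6 membrane-type MMPs reached 10 UMIs, with a median of -0.52. Of these, 4 were below 0, a share near the 56.1% of all tested genes, 1 was below -1 (5.12% of all) and 1 above 1 (6.53% of all). The 1 above 1 was *Mmp24*, on 9 and 2 UMIs. Of the genes with at least 50 UMIs 4 of 4 were below 0, beside 9113 of 15878 tested genes, with a median of -0.64. Thinned to 2000 UMIs per cell, 4 of 4 were below 0, beside 7104 of 14398 tested genes, with a median of -1.09. *Mmp14* (MT1-MMP), the partner of *Timp2* in activating pro-MMP-2, stood at 313 CPM after FGF8 and 451 CPM after BSA, a log2 ratio of -0.53, and *Mmp16* (MT3-MMP) at 90.1 and 182 CPM, -1.01. The anchored inhibitor *Reck* was at 39.4 and 68.1 CPM, -0.79.

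Some aggrecanases and sheddases are targets of *Timp3*. The lists also hold genes not known as its targets, such as *Adam8*. Of 11 aggrecanases and related Adamts genes, 10 were below 0, where 56.1% of all tested genes were, and none was beyond 1, with a median of -0.38. Thinned to 2000 UMIs per cell, 7 of the 11 were below 0, beside 7104 of 14398 tested genes, with a median of -0.23. *Adamts5* and *Adamts4*, the main aggrecanases, had log2 ratios of -0.08 and -0.16, *Adamts1* one of 0.31 and *Adamts15* one of -0.90. *Adam17*, the sheddase of tumour necrosis factor, was at 37.8 and 33.1 CPM (0.19), and *Adam10* had a ratio of -0.09. Of the 9 sheddases, 4 were above 0 (43.9% of all tested genes) and 2 above 1 (6.53% of all tested genes). The 2 were *Adam8*, a leukocyte and stromal sheddase, at 16.9 and 2.23 CPM (2.92), and *Adam28* on 10 UMIs.

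Of 10 partners and clearance receptors, 5 were above 0, where 43.9% of all tested genes were, and 5 below. None was beyond 1, and the median was 0.02. *Cd63*, the surface partner of TIMP1, stood at 1741 CPM after FGF8 and 1830 CPM after BSA (-0.07). *Itgb1*, the β1 integrin that acts with it, had a ratio of 0.10, and *Lrp1*, the endocytic receptor that clears TIMPs and MMPs, one of -0.03. *Cd44*, a hyaluronan receptor, was the highest of the list at 225 and 146 CPM (0.62). *Agtr2*, the angiotensin II type 2 receptor, was the lowest at 34.5 and 58.3 CPM (-0.76), and the tetraspanin *Cd82* had a ratio of -0.54. Among MMP activators, urokinase *Plau* (22.4 and 7.52 CPM, 1.57) and its receptor *Plaur* (118 and 53.4 CPM, 1.14) were the 2 of 12 above 1, where 6.53% of all tested genes were. Of the 12 activators 5 were above 0 (43.9% of all tested genes), with a list median of -0.03. Thinned to 2000 UMIs per cell, 8 of 11 were above 0, beside 7294 of 14398 tested genes, with a median of 0.20. The median of all tested genes was -0.07 before thinning and 0.007 after it. Of 17 measured genes on the list of other protease inhibitors, 9 were above 0 (43.9% of all tested genes), with a list median of 0.20. Above 1 were 2 (6.53% of all tested genes), *Wfdc2* (1.46) and *Pcolce2* (1.28). The list also held genes that are no inhibitors: *Pcolce2* and *Pcolce* (-0.29) encode enhancers of procollagen cleavage, and *Serpinh1* (-0.25) a collagen chaperone.

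Genes listed for pathways known to induce *Timp1* stood mostly higher. Of 22 genes, 20 had a log2 ratio above 0, where 43.9% of all tested genes did, and 4 were above 1, where 6.53% did, with a median of 0.49. *Il11*, a cytokine of the interleukin-6 family, stood at 42.4 CPM after FGF8 and 3.59 CPM after BSA (3.56), *Lif*, of the same family, had a ratio of 1.10, and *Osmr*, the oncostatin M receptor, one of 0.81. *Etv4*, an Ets factor induced by FGF signalling, was at 20.6 and 4.69 CPM (2.14). Of the AP-1 genes, *Fosl1* was at 45.8 and 16.6 CPM (1.46), *Junb* had a ratio of 0.52, *Jun* one of 0.43 and *Fos* one of 0.07. *Tgfb1* (-0.08) and *Egr1* (-0.26) were the 2 below 0. The list was chosen with these data known, and its counts are a description. It includes genes known to respond to FGF signalling, namely *Dusp6* (0.90), *Spry4* (0.46), *Etv4* and *Etv5* (0.30), and the cytokine feedback gene *Socs3* (0.54). Higher levels of the FGF-responsive genes could be foreseen with an FGF8 bead, so the counts are no test of *Timp1* induction.

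**Figure D5:**
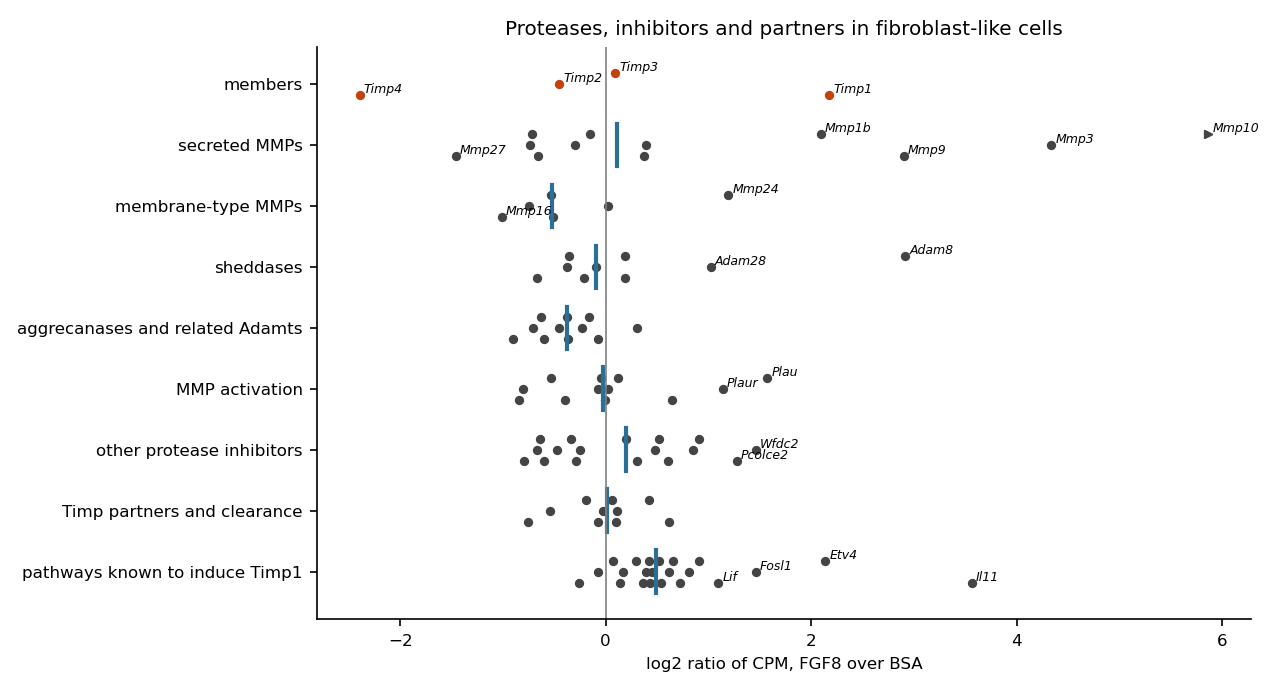
Log2 ratio of CPM, FGF8 over BSA, of each measured gene of 8 protease, inhibitor, partner and inducing-pathway lists in fibroblast-like cells (points), with each list's median and a line at 0. The list of pathways known to induce *Timp1* had the highest median (0.49) and the membrane-type MMPs the lowest (-0.52), beside a median of -0.07 over all genes.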

How the data were processed

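Single-cell libraries of P2 wound tissue, 1 per bead, were deposited as matrices of raw UMI counts per gene and barcode, which the authors made with Cell Ranger 9.0.0 (per the labels, whose processing notes name GRCm39 and mm10; the gene identifiers matched the GRCm39 annotation). Cells were filtered, normalised with SCTransform (sctransform 0.4.2), integrated by CCA over 30 components and clustered at resolution 0.05 in Seurat 5.3.0 (R 4.3.3, seed 42), after the study's methods, with the Timp genes left out of the variable features. Clusters were named from marker genes, of which at least 3 had to be found in 10% of cells. Fibroblast-like cells, the mural cluster and an unnamed cluster were re-clustered at 0.2. UMIs were summed by library and cell type, scaled to CPM and compared as log2 ratios with exact conditional (Clopper-Pearson) 95% intervals, in Python 3.11.15 with scipy 1.17.1. Genes with at least 10 UMIs entered the lists. Scrublet (scanpy 1.11.5) called 0 doublets in either library and so did not work, and no doublets were removed in the main result. The counting code was tested on simulated data. The named genes were the 4 members, their hosts, members of the lists and, for each member, the 3 genes most alike over cell types and subclusters. The members and lists were chosen with earlier results of these data known. Barcodes were sexed by *Xist* and 4 Y-linked genes. The study's supplementary gene lists served only to leave genes out of the re-clustering of fibroblast-like cells.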

Additional observations from a re-analysis of the deposited data

Results flagged for a closer look

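Results are given here because the difference between the beads pointed opposite ways in 2 groups of cells. In no case was the difference between the groups tested, since each condition was 1 library. *Timp3* in fibroblast-like cells differed between the beads by 0.36 on the log2 scale among female-called cells, and by -0.11 among male-called cells, beside 0.09 in all. Within the FGF8 library it stood at 210 CPM (females) and 168 CPM (males), and within the BSA library at 164 and 182 CPM. The same split appeared in the *Prg4*, *Mmp3* and *Il1rl1* subcluster, with log2 ratios of 0.39 and -0.54 for female-called and male-called cells, where the male-called BSA cells numbered 51.

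*Timp1* in neutrophil-like cells differed by -2.24 on the same scale for females and by 5.16 for males, and 1 BSA cell held 189 of the 199 BSA UMIs. *Timp3* had a log2 ratio of 0.37 in chondrocyte-like and -0.47 in smooth muscle or pericyte-like cells, with intervals on opposite sides of 0.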

How the results depend on the processing

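With 1 library per condition there is no replicate spread, and values are judged against the counting interval, which is narrow for *Timp1* to *Timp3*. In fibroblast-like cells *Timp1* was higher and *Timp2* lower under every alternative, with log2 ratios from 1.26 to 2.25 and from -0.57 to -0.056. *Timp3* went from -0.11 to 0.36. Values for *Timp1*, *Timp2* and *Timp3*, in that order, were 2.11, -0.25 and 0.21 with the stricter cell filter (over 500 and under 6000 genes, mitochondrial share under 10%, applied to the same cells, because clustering the filtered cells anew left the largest cluster unnamed), 2.03, -0.29 and 0.23 with each cell weighted equally, 2.08, -0.31 and 0.18 thinned to 2000 UMIs, and 2.12, -0.28 and 0.17 thinned to 5000. Female-called cells gave 2.20, -0.57 and 0.36, and male-called cells 2.08, -0.32 and -0.11, a reversal for *Timp3*. Centring on the median of all genes gave 2.25, -0.38 and 0.17, and pooled subcluster shares 1.59, -0.34 and 0.18. At resolution 0.1 the values were 1.26, -0.056 and 0.17, and at 0.2 they were 1.27, -0.062 and 0.12. At both of these resolutions the cells with the most *Prg4* formed a cluster of their own that stayed unnamed. Of the alternatives chosen after seeing the data, leaving out the subcluster with the highest *Timp1* gave 1.28, -0.19 and 0.27, and leaving the 10 highest genes out of the total gave 2.14 and -0.49 for *Timp1* and *Timp2*. *Timp4* stayed within its wide interval, from -2.80 to -1.32, and gave no value in thinned or female-called cells.

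Elsewhere, of the ratios of whole cell types and unnamed clusters whose interval did not hold 0, the direction turned in male-called cells for *Timp2* in macrophage-like (0.11) and *Timp3* in lymphatic endothelial-like cells (-0.21) and an unnamed shallow cluster led by *Camk1d* (-0.71), and in female-called cells for *Timp1* in erythroid-like cells (-0.17) and *Timp3* in an unnamed cluster led by *Prr9* (-0.55). Such ratios also turned within parts of the cell types, in female-called cells. These were *Timp1* in the mural part led by *Abcc9* and *Higd1b* (0.61 in all cells, -0.87 in female-called cells), *Timp3* in the *Lpl*, *Agtr2* and *Dlk1* subcluster (-0.17 and 0.04), and *Timp2* in the *Coch*, *Nrg1* and *Robo2* subcluster (0.23 and -0.19). Ratios whose interval held 0 also changed sign, among them *Timp2* in keratinocyte-like cells (-1.77 for females), *Timp3* in endothelial-like cells (-0.29 for males) and, on few UMIs, *Timp2* and *Timp3* in mast-like cells (-1.47 and -2.24 for males). The cause was not tested. No paired analysis was possible because each condition was 1 library. Bead and library cannot be told apart as sources of any difference, depth and sex makeup moved with them to the extent that the thinned and within-sex values above show, and sums over 5 pooled mice hold no spread between animals. Low counts limit *Timp4*, and *Timp1* in keratinocyte-like and mast-like cells.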

Other observations

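The genes whose levels were most like each member's over 42 pairs of cell group and library were named by Pearson correlation of log2(CPM + 10) among 12498 genes, as a description, since the pairs share 2 libraries. The groups were the cell types, with the fibroblast-like and mural cells split into their subclusters, and 14 of the pairs were fibroblast-like subclusters. For *Timp1* they were *Cxcl1*, a neutrophil-attracting chemokine (0.855), *Loxl3*, a lysyl oxidase that crosslinks matrix (0.835), and *Fn1*, fibronectin (0.831). For *Timp2* they were *Mmp14* (0.910), *Nfic* (0.908) and *Gm56768* (0.893), so that the gene most like *Timp2* was the protease it binds at the cell surface. For *Timp3* they were the adhesion genes *Ptk2* (0.865) and *Fermt2* (0.854) and the transcriptional coactivator *Wwtr1* (0.859). The members were less like one another: *Timp1* with *Timp2* gave 0.594, *Timp1* with *Timp3* 0.500 and *Timp2* with *Timp3* 0.453.

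The synapsin genes that hold 3 of the members had few UMIs in fibroblast-like cells. *Syn1*, host of *Timp1*, had 187 UMIs after FGF8 and 45 after BSA, a log2 ratio of 1.08 (0.60 to 1.58). *Syn3*, host of *Timp3*, had 387 and 242 (-0.30), and *Syn2*, host of *Timp4*, had 14 in each library. The *Syn1* UMIs moved with *Timp1* in direction, and whether they came from its opposite strand was not tested.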
